A study of Mus musculus with 80 samples.

Results

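The p53 pathway was read through 10 genes taken by symbol, namely Cdkn1a, Mdm2, Trp53inp1, Ccng1, Zmat3, Phlda3, Bax, Perp, Btg2 and Trp53. They are 10 of the 22556 genes in each expression table, and all 10 had a mean above 1 CPM (read pair counts scaled to a common library total) in each of the 6 tables. The question was whether acute depletion of an m6A or RNA surveillance factor was followed by a rise of p53 target transcripts. Trp53 encodes p53 itself and the others are well-known p53 targets.

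Chromatin-associated RNA, which is enriched for nascent transcripts, was sequenced from mouse ES cells (mES cells) of a Cast x 129S cross in 80 libraries from 36 groups. In the degron lines the endogenous protein carries FKBP12 F36V, a tag through which dTAG-13 directs the protein to the proteasome. METTL3, which deposits m6A on nascent RNA, was tagged in 4 clones, G4 and H1 at the N terminus and C3 and H5 at the C terminus. YTHDC1 (a nuclear m6A reader; clones Y9F and Y12H, sequenced in experiments 1 and 2), ZCCHC8 (a subunit of the NEXT complex that feeds short nuclear RNAs to the exosome; clones Z4F and Z12H) and ZFC3H1 (a subunit of the PAXT connection for polyadenylated nuclear RNAs; clones 8H and 11A) had 2 clones each. Another 4 lines were made from METTL3 clone H5 by placing GFP-METTL3, either WT or the catalytic mutant D395A, at Rosa26. Of these, WT_P2B3 and D395A_1F keep both X chromosomes (XX), while WT_1A and D395A_9F keep only the X with inducible Xist (XiO). Each of the transgene lines is 1 clone sequenced in 2 experiments, so its p-values do not cover the spread between clones. They rest on a spread pooled over the WT and D395A lines fitted together. A fit with the experiment as a block takes the shared part of each experiment out of that spread.

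Every line was sequenced in 4 states, namely untreated, with dTAG alone (26 h in the titles, 2 h in the treatment field), with doxycycline (Dox) at 1.0 µg/mL for 24 h, and with both agents (dTAG added 2 h ahead of Dox, then the pair kept for 24 h). Dox turns on Xist from a TetOn promoter, which sits on the Cast allele in the METTL3, transgene and ZFC3H1 lines and on the 129S allele, with Xist-Bgl, in the YTHDC1 and ZCCHC8 lines. The degron acts on protein, so the RNA of the tagged genes does not check the depletion. Recovered depth was 8.58 to 34.4 M reads (megareads) per library. Of 10 mES cell markers 9 were at 1 CPM or more in every library, and the markers summed to 1036 to 2454 CPM. All lines were grown on inactivated fibroblast feeders, and 16 fibroblast markers summed to 44.1 to 144 CPM, although 11 of the 16 had a median under 1 CPM and Lum was at 0 in 70 of 80 libraries. The highest medians were those of Fbn1 (30.1 CPM), Col5a1 (21.2), Mmp2 (10) and Col5a2 (7.37), and the next was Col1a2 (1.08). The sum therefore mostly follows the first of these genes, and whether it tracks feeder cells was not tested. In such bulk samples fewer cells of a type and less RNA per cell cannot be told apart.

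p53 is a transcription factor that is kept low by MDM2, an E3 ubiquitin ligase that marks it for degradation. Stress to the genome or to ribosome assembly releases p53 from MDM2, and p53 then activates its target genes. They stop the cell cycle (Cdkn1a, Btg2), promote cell death (Bax, Perp, Phlda3, Trp53inp1), regulate target RNAs (Zmat3), or regulate p53 turnover in turn (Mdm2, Ccng1). In mES cells p53 is abundant, and its output on cell cycle arrest is known to be muted compared with differentiated cells.

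p53 binds DNA as a tetramer to a pair of p53 half-sites of 10 bases. RefSeq promoter windows of 300 bases (250 before the start) were available for 7 of the 10 genes, in 8 windows on GRCm38.p6, and a pair of abutting half-sites with at most 3 mismatches was found on either strand in 3 of the 8. Of all 32851 promoter windows 1.38% held such a pair. A window of Cdkn1a (chr17:29090729-29091028, plus strand) and the window of Ccng1 (chr11:40755237-40755536, minus strand) are shown because each holds a pair with 1 mismatch, printed in capitals. The other Cdkn1a window (chr17:29093519-29093818, plus strand), which lies downstream, held none. The Mdm2 promoter window held none, so the last 300 bases of intron 1 in the GENCODE annotation (chr10:117710029-117710328, minus strand), next to the known p53-responsive promoter of that gene, are shown as well, with a pair of 3 mismatches in capitals. A match is a description of letters and not evidence of binding.
Cdkn1a promoter: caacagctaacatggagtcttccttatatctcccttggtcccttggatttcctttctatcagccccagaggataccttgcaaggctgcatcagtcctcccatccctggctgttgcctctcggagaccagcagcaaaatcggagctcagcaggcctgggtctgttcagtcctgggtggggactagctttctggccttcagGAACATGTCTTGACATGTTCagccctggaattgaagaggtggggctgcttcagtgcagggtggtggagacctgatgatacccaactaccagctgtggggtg
Ccng1 promoter: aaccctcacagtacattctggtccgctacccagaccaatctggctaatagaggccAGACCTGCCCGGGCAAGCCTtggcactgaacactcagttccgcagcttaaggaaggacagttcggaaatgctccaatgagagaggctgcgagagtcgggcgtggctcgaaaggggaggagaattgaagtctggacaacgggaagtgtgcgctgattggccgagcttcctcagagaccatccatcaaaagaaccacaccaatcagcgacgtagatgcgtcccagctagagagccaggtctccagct
Mdm2 intron 1: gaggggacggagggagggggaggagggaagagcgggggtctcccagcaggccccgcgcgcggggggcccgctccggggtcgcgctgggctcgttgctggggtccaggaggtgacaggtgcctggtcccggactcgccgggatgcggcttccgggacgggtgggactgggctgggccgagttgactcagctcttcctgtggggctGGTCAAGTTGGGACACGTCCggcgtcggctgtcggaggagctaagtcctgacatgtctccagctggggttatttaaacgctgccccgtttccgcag

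The genes span very different lengths and levels. Reads were counted over whole gene spans, introns included, so levels between genes were compared per kb of span. In the 20 untreated libraries Ccng1 had the highest median, 27.0 CPM per kb, followed by Trp53inp1 at 14.6, Mdm2 at 10.3, Trp53 at 7.78, Bax at 5.92, Zmat3 at 4.12, Btg2 at 2.27, Phlda3 at 1.93, Cdkn1a at 1.74 and Perp at 0.435 CPM per kb. The order held between Ccng1 and Trp53inp1 in 20 of 20 libraries, whereas Phlda3 was above Cdkn1a in 12 of 20, so these neighbours did not differ beyond their spread. Cdkn1a (chr17:29090986-29100722), the gene of the cyclin-dependent kinase inhibitor p21, thus ranked 9 of 10 in chromatin RNA, at 8.98 to 26.2 CPM in untreated cells, and its lowest library still held 120 reads.

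Mdm2 (chr10:117688875-117710758, minus strand) passed in 6 of the 10 dTAG comparisons of the degron lines, the most of the 10 genes. In YTHDC1 experiment 1 it went from 277.7 CPM untreated to 437.6 with dTAG in clone Y9F and from 253.7 to 389.7 in clone Y12H. With Dox it went from 227.8 to 316.1 CPM in Y9F and from 220.3 to 292.1 in Y12H. Every dTAG library was above its own control and the groups did not overlap. By limma with Benjamini-Hochberg adjustment over all genes tested, on the log2(CPM + 1) scale, Mdm2 rose by 0.64 (SE 0.07, adjusted p = 1.74e-05) without Dox and by 0.44 (SE 0.07, adjusted p = 0.000542) with Dox. Without clone Y9F the change with Dox was 0.41 and no longer passed, and without the clone term it was at adjusted p = 0.0565. In YTHDC1 experiment 1 and ZCCHC8 a fit without 1 clone keeps 1 library per group. Whether it passes then rests on the spread of the other line fitted with it.

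YTHDC1 experiment 2 used the same clones. Mdm2 went from 260.2 to 464.1 CPM in Y9F and from 231.9 to 304.9 in Y12H without Dox, and from 213.2 to 322.7 and from 210.8 to 264.6 CPM with Dox. Again the dTAG libraries lay above the controls in both clones. The changes were 0.61 (SE 0.09, adjusted p = 7.95e-05) and 0.46 (SE 0.09, adjusted p = 0.00143). They were unequal between clones, 0.83 in Y9F alone and 0.39 in Y12H alone without Dox, and without the clone term neither passed (adjusted p = 0.301 and 0.52). With Dox the call was also lost with no filter on low values (adjusted p = 0.0501).

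In the ZFC3H1 lines Mdm2 rose to a like size. Clone 8H went from 190.8 to 288.0 CPM without Dox and from 170.3 to 252.0 with Dox, and clone 11A from 179.6 to 281.1 and from 180.2 to 296.2 CPM. The groups did not overlap in either comparison. The changes were 0.62 (SE 0.09, adjusted p = 0.00612) and 0.64 (SE 0.09, adjusted p = 0.00469). Without the clone term the same changes had an adjusted p of 1 in both comparisons. The fibroblast marker sum moved as well, from 63.3 to 70.3 CPM untreated to 74.5 to 79.7 CPM with dTAG in YTHDC1 experiment 1. In ZFC3H1 that sum went from 74.0 to 94.5 CPM to 81.0 to 115 CPM. With the mean log2(CPM + 1) of the fibroblast markers as a covariate all 6 Mdm2 rises passed.

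**Figure D1:**
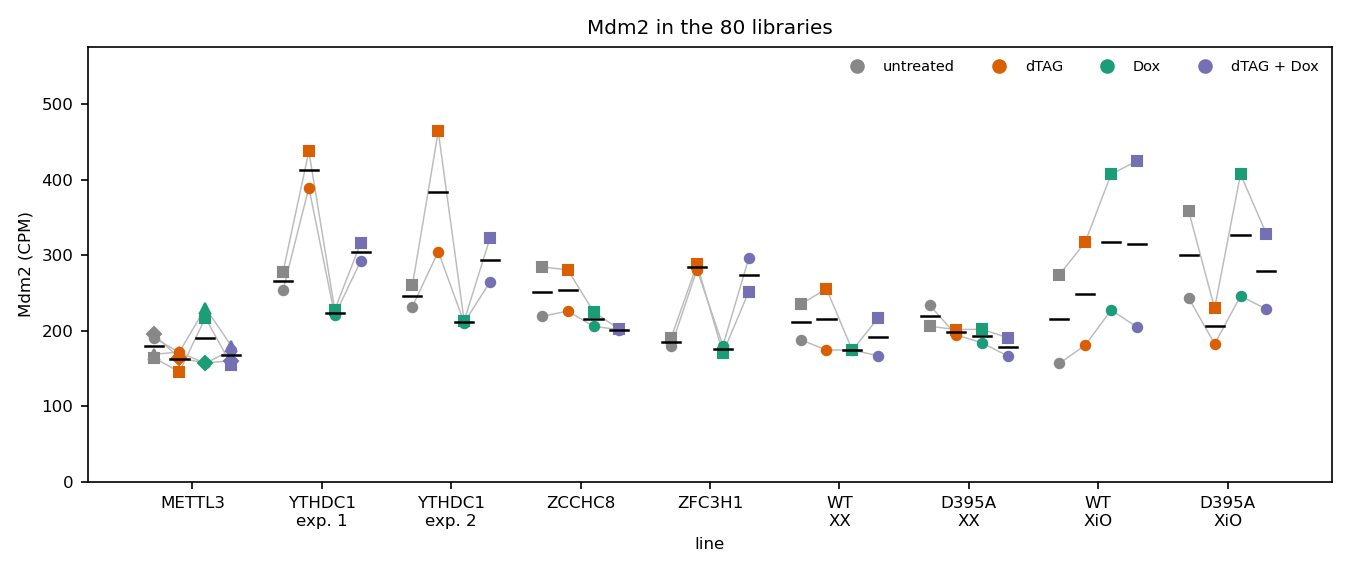
Mdm2 in CPM (y axis, linear from 0) in each of the 80 libraries, grouped by line (x axis) and coloured by treatment. Marker shape and grey lines join the libraries of a clone (degron lines) or an experiment (transgene lines), and black bars are group means. The dTAG libraries of the YTHDC1 lines, at 264.6 to 464.1 CPM, lie above the controls of the same clone, as do those of ZFC3H1, while the METTL3 libraries stay between 145.5 and 230.5 CPM.

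Depletion of ZCCHC8 left Mdm2 near its control. It was at 284.5 and 280.9 CPM without and with dTAG in clone Z4F and at 218.9 and 226.1 CPM in Z12H, a log2 difference of 0.01 (95% interval -0.13 to 0.16). With Dox the values were 225.4 and 201.7 CPM in Z4F and 205.9 and 201.4 CPM in Z12H, a difference of -0.10 (95% interval -0.24 to 0.05). The ZCCHC8 lines were sequenced in the same table as YTHDC1 experiment 1, so the effects could be set against each other. The effect of dTAG on Mdm2 in ZCCHC8 minus that in YTHDC1 lines was -0.62 (SE 0.10, adjusted p = 0.000247) without Dox and -0.53 (SE 0.10, adjusted p = 0.000728) with Dox, and both differences passed in all 12 alternatives run. For all genes, 25.1% and 29.6% of those tested differed between the YTHDC1 and ZCCHC8 effects.

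In the METTL3 clones, where the m6A writer is depleted, no rise of Mdm2 was detected. It was at 164.4 to 195.5 CPM untreated and 145.5 to 171.9 CPM with dTAG, and at 157.0 to 230.5 CPM with Dox and 155.1 to 180.2 CPM with dTAG and Dox. The groups overlapped, and the changes of -0.14 (95% interval -0.41 to 0.14) and -0.17 (95% interval -0.44 to 0.11) did not pass. On the CPM scale the median of all genes moved by 0.21 and 0.23 in these comparisons. Relative to that shift, after median-ratio scaling, Mdm2 had changes of -0.38 (adjusted p = 0.0273) and -0.42 (adjusted p = 0.0364), and Zmat3 of -0.38 (adjusted p = 0.0246) without Dox.

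Trp53 itself moved little. It fell in YTHDC1 experiment 1 from 131.7 to 114.6 CPM in Y9F and from 122.6 to 107.5 in Y12H without Dox, and from 146.8 to 115.2 and from 139.1 to 117.7 CPM with Dox. The changes were -0.19 (SE 0.06, adjusted p = 0.0392) and -0.29 (SE 0.06, adjusted p = 0.00455). Leaving out either clone ended both calls (-0.19 and -0.24 without Y9F, -0.20 and -0.35 without Y12H). In experiment 2 it went from 118.8 to 92.1 CPM in Y9F and from 89.6 to 88.3 in Y12H without Dox and did not pass. In ZCCHC8 with Dox it rose by 0.18 (adjusted p = 0.0292), a call kept in 2 of 10 alternatives and lost without Z4F (0.20) or Z12H (0.16). The effects of ZCCHC8 and YTHDC1 depletion on Trp53 differed by 0.47 (SE 0.09, adjusted p = 0.000747) with Dox, in all 12 alternatives run. Without Dox they differed by 0.26 (adjusted p = 0.0385), a call kept in 4 of 12 alternatives and lost without any 1 of the clones. The difference was then 0.26 without Y9F, 0.27 without Y12H, 0.26 without Z4F and 0.27 without Z12H.

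Cdkn1a, the standard reporter of a p53 response, was called in the YTHDC1 lines with Dox and in no other dTAG comparison. In YTHDC1 experiment 1 it went from 16.5 to 23.6 CPM in Y9F and from 16.3 to 20.1 in Y12H with Dox, and in experiment 2 from 20.0 to 25.6 and from 22.6 to 26.3 CPM. These were rises of 0.38 (SE 0.11, adjusted p = 0.0276) and 0.28 (SE 0.09, adjusted p = 0.0406). Both were lost with no filter on low values (adjusted p = 0.0694 and 0.0698) and without the clone term. The first was also lost without Y9F (0.28) or without Y12H (0.49). The fibroblast marker covariate ended both calls (adjusted p = 0.0564 and 0.144), and the short-gene share (the share of CPM in genes under 3 kb) as a covariate ended the second (adjusted p = 0.0757). Without Dox the values were 20.0 and 22.6 CPM in Y9F and 15.7 and 16.8 CPM in Y12H in experiment 1, and the differences, 0.13 and 0.02 in experiments 1 and 2, did not pass (95% intervals -0.10 to 0.37 and -0.16 to 0.21).

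In ZFC3H1 Cdkn1a went from 20.2 to 25.2 CPM in 8H and from 14.1 to 16.4 in 11A without Dox, and from 14.4 to 16.5 and from 10.6 to 19.5 CPM with Dox, higher in both clones each time (differences 0.26 and 0.50, adjusted p = 0.53 and 0.17). In ZCCHC8 the clones parted, with 20.3 and 20.3 CPM in Z4F and 11.6 and 15.1 CPM in Z12H. In the METTL3 clones the values ran from 8.98 to 15.9 CPM untreated, 8.44 to 21.5 CPM with dTAG, 5.63 to 30.0 CPM with Dox and 13.0 to 24.4 CPM with dTAG and Dox. The spread was wide between these clones and also between libraries of a clone. Dox alone changed Cdkn1a by -0.59 in C3, 0.94 in G4, 0.97 in H1 and -0.45 in H5. With Dox, dTAG changed it by 1.62, -0.60, -0.14 and 0.18 in that order. The short-gene share in the C3 libraries was 0.798% untreated, 1.22% with dTAG, 0.498% with Dox and 4.58% with both agents. Its part in the Cdkn1a spread was not tested. The interval of the difference without Dox, -0.40 to 0.91, leaves falls and rises within it possible.

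**Figure D2:**
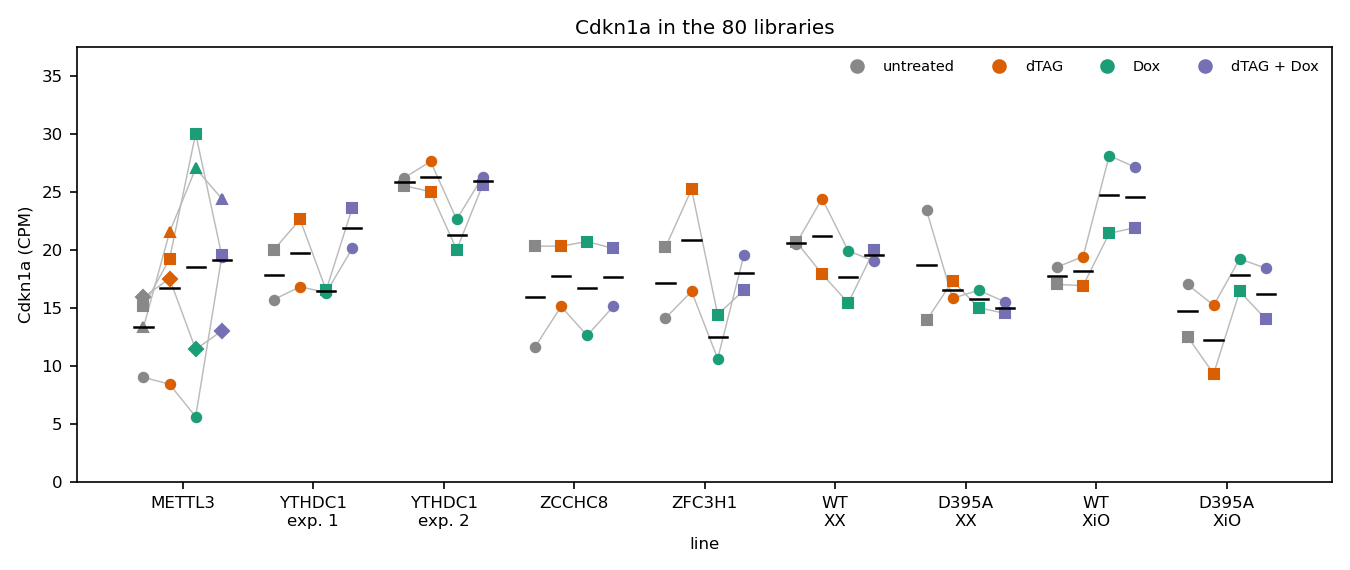
Cdkn1a in CPM (y axis, linear from 0) in each of the 80 libraries by line (x axis) and treatment (colour), with marker shape and grey lines for a clone or experiment and black bars for group means. All libraries lie between 5.63 and 30.0 CPM, and treatments overlap in most lines.

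Ccng1 (chr11:40748552-40755286, minus strand), which encodes cyclin G1, a p53-induced regulator of p53 turnover, showed the largest change of the 10 genes among the dTAG comparisons of all lines. In METTL3 clones without Dox it rose from 135.3 to 359.4 CPM in C3, from 172.8 to 284.6 in G4, from 192.6 to 314.6 in H1 and from 169.4 to 366.2 in H5. All 4 clones rose and the groups did not overlap. The change was 0.98 (SE 0.18, adjusted p = 0.00269), a 1.98-fold difference, and 0.75 (adjusted p = 0.01) after median-ratio scaling. The fibroblast marker sum also moved, from 55.8 to 62.8 CPM untreated to 72.3 to 110 CPM with dTAG. With the mean log2(CPM + 1) of the fibroblast markers as a covariate the Ccng1 change was 0.82 (adjusted p = 0.06).

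With Dox the METTL3 clones no longer separated. Ccng1 was at 137.3 CPM in C3, 325.9 in G4, 240.9 in H1 and 207.3 in H5 with Dox alone, and at 211.6, 276.8, 268.8 and 280.9 CPM with dTAG and Dox. It was higher with dTAG in 3 clones and lower in G4, a difference of 0.24 (95% interval -0.14 to 0.63, adjusted p = 0.336). The difference between the effects with and without Dox was -0.74 (95% interval -1.28 to -0.20), which limma did not call (adjusted p = 1).

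In YTHDC1 experiment 1 Ccng1 rose from 224.5 to 292.7 CPM in Y9F and from 249.0 to 283.0 in Y12H without Dox, and from 193.4 to 261.6 and from 191.4 to 233.5 CPM with Dox. The changes were 0.28 (adjusted p = 0.00496) and 0.36 (adjusted p = 0.00108), and both calls were lost without Y9F (0.18 and 0.29). In experiment 2 the clones stood far apart whatever the treatment. Y9F held 389.7 to 616.0 CPM of Ccng1 in its 4 libraries, above the highest of the other 76 libraries of the series (373.4 CPM), while Y12H held 168.3 to 199.1 CPM. The difference on dTAG in experiment 2 did not pass (0.10 and 0.12). In ZCCHC8 Ccng1 rose with Dox, from 184.5 to 208.4 CPM in Z4F and from 182.2 to 225.4 in Z12H (0.24, adjusted p = 0.00601). That call was lost without Z12H (0.17).

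**Figure D3:**
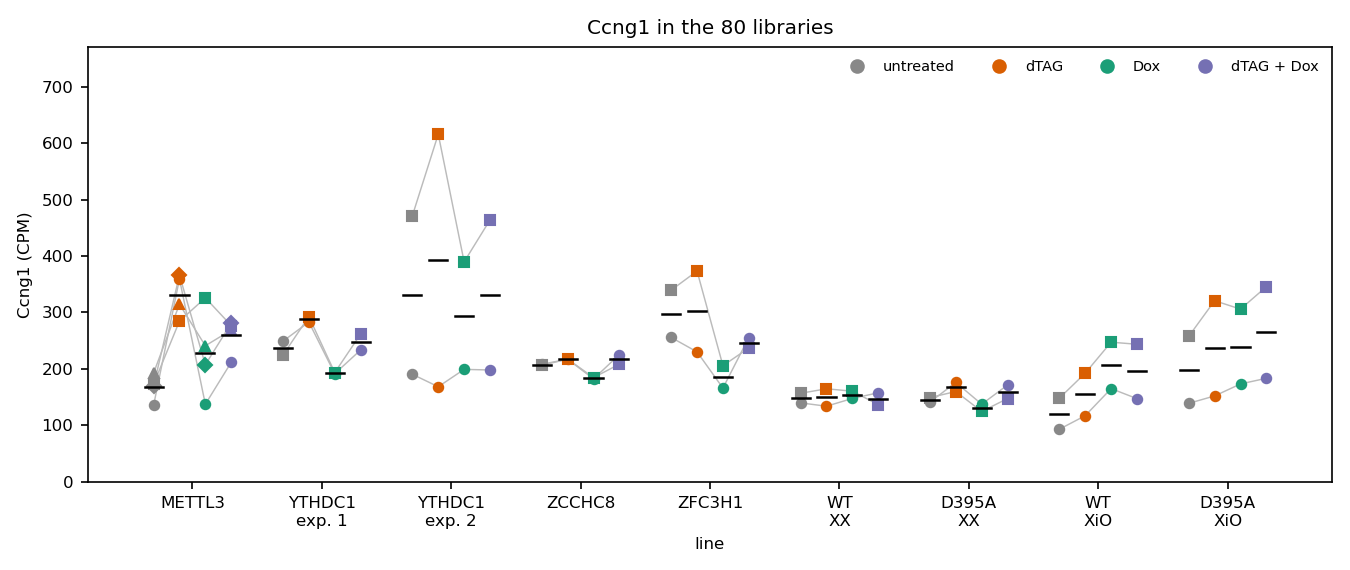
Ccng1 in CPM (y axis, linear from 0) in each of the 80 libraries by line (x axis) and treatment (colour), with marker shape and grey lines for a clone or experiment and black bars for group means. The METTL3 dTAG libraries, at 284.6 to 366.2 CPM, lie above all untreated METTL3 libraries (135.3 to 192.6 CPM), and clone Y9F of YTHDC1 experiment 2 lies above Y12H in every treatment.

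Btg2, an antiproliferative p53 target, was low in all lines, at 5.16 to 33.4 CPM. With Dox it rose in YTHDC1 experiment 2 from 13.1 to 18.4 CPM in Y9F and from 15.4 to 18.7 in Y12H (0.36, adjusted p = 0.0277). That call was lost in 4 of 8 alternatives, with an adjusted p of 0.0876 with no filter, 0.123 with the fibroblast covariate, 0.162 with the short-gene covariate and 0.475 without the clone term. In ZCCHC8 with Dox it rose from 6.4 to 11.6 CPM in Z4F and from 9.7 to 13.3 in Z12H (0.59, adjusted p = 0.00382). That call was lost in 4 of 10 alternatives, among them without Z4F (0.42). In the METTL3 clones it went from 11.7 to 33.4 CPM in H5 and from 8.5 to 18.3 in C3, but from 11.4 to 9.3 in G4, and did not pass (0.60, 95% interval -0.06 to 1.26). The C-terminal clones thus held the high values in that group.

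Among the cell death genes, Trp53inp1, whose product enhances p53 activity and autophagy, rose in 3 lines. In ZCCHC8 it went from 293.2 to 315.2 CPM in Z4F and from 268.4 to 334.7 in Z12H without Dox (0.21, adjusted p = 0.0125), and from 217.9 to 289.1 and from 236.2 to 311.9 CPM with Dox (0.40, SE 0.06, adjusted p = 6.28e-05). The change with Dox passed in all 10 alternatives run, whereas that without Dox was 0.10 without Z12H and no longer passed. The changes in YTHDC1 experiment 1 were 0.32 (adjusted p = 0.00156) and 0.29 (adjusted p = 0.00391). Without Y9F they did not pass (0.28 and 0.23), nor did the second without Y12H (0.35). In ZFC3H1 with Dox it rose from 184.4 to 261.7 CPM in 8H and from 178.1 to 275.6 in 11A (0.56, SE 0.10, adjusted p = 0.0172), with an adjusted p of 1 without the clone term. In YTHDC1 experiment 2 Trp53inp1 did not pass (0.14 and 0.09).

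Bax, the mitochondrial death effector that p53 activates, went the other way without Dox. It fell by 0.26 in YTHDC1 experiment 1, from 39.3 to 31.2 CPM in Y9F and from 31.8 to 27.7 in Y12H (adjusted p = 0.0308). It fell by 0.24 in experiment 2, from 30.5 to 25.7 and from 31.6 to 26.4 CPM (adjusted p = 0.049), and by 0.22 in ZCCHC8, from 30.7 to 25.6 CPM in Z4F and from 28.8 to 25.0 in Z12H (adjusted p = 0.036). In experiment 1 the change was -0.19 without Y9F and -0.32 without Y12H, and in ZCCHC8 -0.20 without Z4F and -0.25 without Z12H. None of these passed. With median-ratio scaling the fall in experiment 2 missed the threshold (adjusted p = 0.054). With Dox, Bax passed in no degron line.

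Phlda3, a p53-induced repressor of AKT signalling, rose in YTHDC1 experiment 2 from 6.2 to 9.8 CPM in Y9F and from 5.7 to 6.6 in Y12H without Dox (0.39, adjusted p = 0.0372), and from 7.8 to 10.8 and from 5.6 to 8.4 CPM with Dox (0.46, adjusted p = 0.0165). The rise without Dox was 0.60 in Y9F alone and 0.18 in Y12H alone. Each of these calls was lost in 4 of 8 alternatives. With Dox the adjusted p was 0.0859 with no filter, 0.0522 with the fibroblast covariate, 0.0932 with the short-gene covariate and 0.601 without the clone term. In ZCCHC8 with Dox Phlda3 rose by 0.44 (adjusted p = 0.0392), a call lost in 6 of 10 alternatives, among them without Z12H (0.35). Perp, a desmosomal p53 effector, and Zmat3, an RNA-binding splicing regulator, passed in no degron line. The largest Perp difference was in ZFC3H1 with Dox, from 2.8 to 5.5 CPM in 8H and from 3.3 to 6.2 in 11A (0.76, 95% interval 0.29 to 1.23, adjusted p = 0.087). Zmat3 in ZFC3H1 went from 126.7 to 155.7 CPM in 8H and from 127.5 to 154.5 in 11A without Dox, close to the threshold (0.29, adjusted p = 0.0709).

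**Figure D4:**
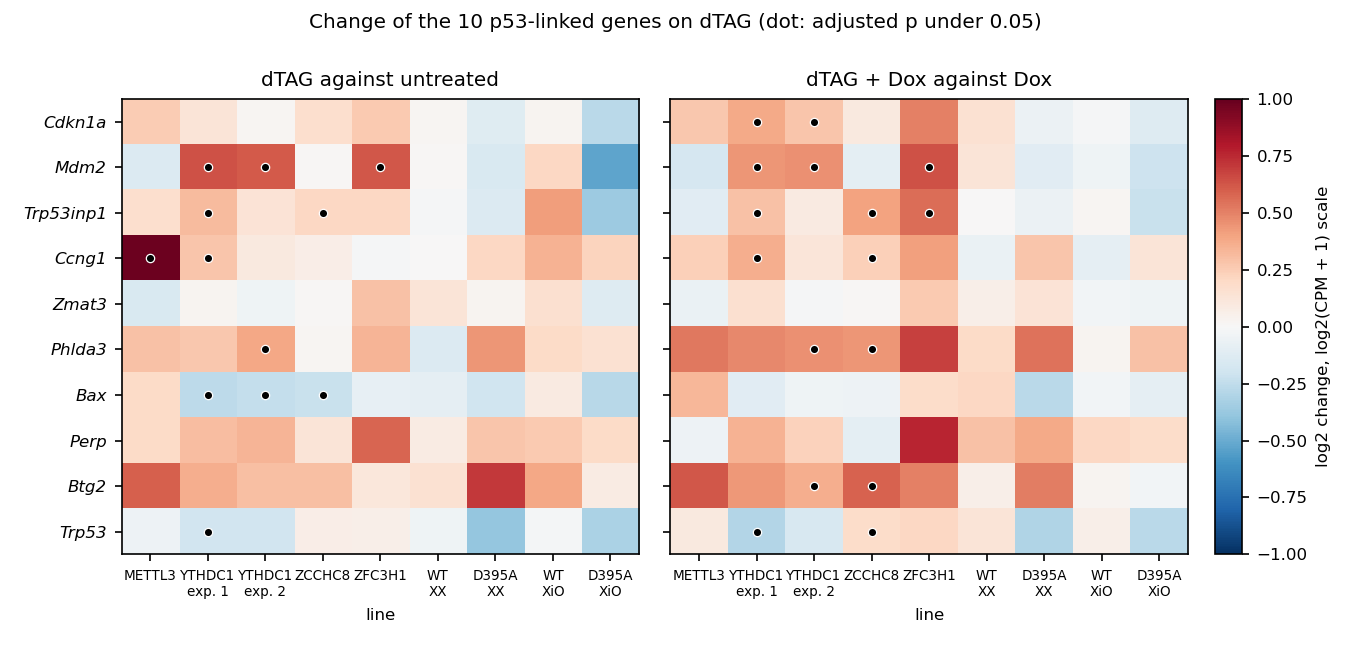
Heat map of the log2 change (colour scale from -1 to 1, on the log2(CPM + 1) scale) of the 10 genes (rows) in the 9 lines (columns) for dTAG against untreated (left) and dTAG + Dox against Dox (right). Dots mark limma adjusted p under 0.05, with clone as a block in the degron lines and no block in the transgene lines. The Mdm2 row is dotted for both YTHDC1 experiments and ZFC3H1 in both panels, Perp and Zmat3 have no dots, and the 4 transgene lines have none.

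The 10 genes were then counted against all genes tested in each line. Without Dox 3 rose and 2 fell in YTHDC1 experiment 1, where 10.6% of all genes tested rose and 8.45% fell. With Dox 4 rose and 1 fell, against 9.84% and 5.69%. In experiment 2 the counts were 2 up and 1 down (8.34% and 9.42% of all genes) without Dox, and 4 up and 0 down (8.32% and 6.34%) with Dox. Their median change in experiment 1 was 0.27 and 0.35, beside 0.00 and 0.02 over all genes, and in experiment 2 it was 0.12 and 0.18, beside -0.02 and 0.00. The median of the 10 was above that of all genes in all 4 comparisons. Cell type markers moved in the same comparisons. The sum of 8 primitive endoderm markers went from 192 to 193 CPM untreated to 134 to 150 CPM with dTAG in experiment 1 and from 199 to 213 CPM to 142 to 156 CPM in experiment 2, and with Dox from 242 to 272 CPM to 196 to 221 CPM and from 280 to 306 CPM to 245 to 250 CPM. Of these markers 2 and 2 of 4 tested fell in experiment 1 and 2 and 1 of 3 tested in experiment 2, and 0 rose. Of 9 tested mES cell markers 0 rose and 1 and 2 fell in each experiment, with medians of -0.11 and -0.07 in experiment 1 and -0.16 and -0.18 in experiment 2. The fibroblast marker sum in experiment 2 went from 71.1 to 90.4 CPM to 78.9 to 99.9 CPM, and with Dox from 65.7 to 76.4 CPM to 70.8 to 98.9 CPM. Their part in the changes of the 10 genes was not tested, beside the fibroblast covariate.

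In ZFC3H1 1 gene rose without Dox, where 1.75% of all genes rose and 0.399% fell, and 2 rose with Dox, against 2.53% and 0.620%. With Dox all 10 were above 0, with a median of 0.50 beside 0.00 over all genes. The controls of that comparison, with Dox alone, leaned below untreated cells. There 1 of the 10 was above 0, with a median of -0.19 beside -0.01. For dTAG without Dox 8 of the 10 were above 0 in ZFC3H1, with a median of 0.23 beside -0.01. In ZCCHC8 1 rose and 1 fell without Dox (19.9% and 16.2% of all genes) and 5 rose with Dox (25.2% rose and 15.2% fell). The median of the 10 was 0.07 and 0.14 in ZCCHC8. In METTL3 1 rose without Dox, where 16.9% of all genes rose and 6.34% fell, and 0 were called with Dox, where 8.60% rose and 1.94% fell. None of the 10 had an unadjusted p under 0.05 in the METTL3 comparison with Dox, and edgeR on recovered reads called 1, Mdm2, which was lower. The median of the 10 was 0.19 and 0.17 in METTL3, beside 0.21 and 0.23 over all genes.

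The interaction, the dTAG effect with Dox minus that without, was called by limma and by edgeR for 0 of the 10 genes in every line. Of all genes it was called for 0% in METTL3, 0.00722% in YTHDC1 experiment 1, 0.0219% in experiment 2, 0.238% in ZCCHC8, and 0% in ZFC3H1 and the 4 transgene lines. With the experiment as a block it was called for 0 of the 10 in each transgene line, and for 0.00744% of all genes in D395A XiO and 0% in the other 3 lines. At an unadjusted p under 0.05 it took in 1 gene each in METTL3, ZCCHC8 and ZFC3H1, and 0 in the other lines. Passing with Dox and not without is therefore not shown to be a difference for any of these genes.

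The transgene lines ask whether the catalytic site of METTL3 bears on these genes. In the fit without a block limma called 0 of the 10 genes for dTAG in any of the 4 lines. At an unadjusted p under 0.05 there were 2 and 1 genes in D395A XX without and with Dox, 1 and 0 in D395A XiO, and 0 in both WT lines, and edgeR on recovered reads called 1 gene in D395A XX without Dox, Trp53. Of all genes 0% and 0% were called without and with Dox in WT XX, 6.01% and 3.19% in D395A XX, 0% and 0% in WT XiO, and 0.402% and 0.0521% in D395A XiO. Per the study, the wells of a replicate came from 1 batch of cells, and with the experiment as a block 2 and 5 of the 10 genes passed without and with Dox in D395A XX (37.5% and 29.3% of all genes) and 5 and 3 in D395A XiO (34.4% and 31.1%). In the WT lines 0 of the 10 and 0% of all genes passed with the block.

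Trp53 in D395A XX went from 95.7 to 68.8 CPM in experiment 1 and from 105.8 to 84.8 in experiment 2 without Dox, and from 98.3 to 79.2 and from 106.6 to 87.4 CPM with Dox. With the block these were falls of 0.39 (adjusted p = 0.000867) and 0.30 (adjusted p = 0.00807). The median of all genes moved by 0.12 without Dox, and after median-ratio scaling without a block the Trp53 change was -0.53 (adjusted p = 0.0156). Btg2 in D395A XX went from 7.3 to 13.1 and from 8.9 to 14.5 CPM without Dox, and with the block it rose by 0.71 (adjusted p = 0.000892) and by 0.51 with Dox (adjusted p = 0.0109). With Dox, Ccng1 (0.28), Phlda3 (0.54) and Perp (0.38) also rose in that fit (adjusted p = 0.0389, 0.0274 and 0.0451). In the same libraries the fibroblast marker sum went from 47.6 to 60.6 CPM untreated to 80.2 to 85 CPM with dTAG, and the mES cell marker sum from 1960 to 2001 CPM to 1503 to 1597 CPM, whose part in the result was not tested with the block.

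Mdm2 in D395A XiO went from 243.3 to 182.5 CPM in experiment 1 and from 358.2 to 229.8 in experiment 2, lower in both. The change of -0.53 did not pass without the block and passed with it (adjusted p = 0.000544). Trp53inp1 went from 261.8 to 193.8 and from 313.7 to 255.3 CPM, and with the block it fell by 0.36 (adjusted p = 0.00148). Bax (-0.28) and Trp53 (-0.32) fell too and Ccng1 (0.22) rose (adjusted p = 0.0127, 0.00287 and 0.0178), where the median of all genes moved by 0.12. With Dox the blocked calls were Trp53inp1 (-0.22), Trp53 (-0.27) and Phlda3 (0.29), with an adjusted p of 0.0269, 0.00955 and 0.0423.

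The D395A effect minus the WT effect was called by limma without a block and by edgeR for 0 of the 10 genes, none of which had an unadjusted p under 0.05. Of all genes that difference was called for 0% and 0% in XiO and for 0.00748% and 0.0150% in XX cells. With the experiment as a block 3 genes passed without Dox and 1 with Dox in XiO (14.1% and 9.30% of all genes), and 1 and 1 in XX cells (16.3% and 12.1%). In XiO without Dox these were Mdm2 (-0.73, adjusted p = 0.00258), Trp53inp1 (-0.78, adjusted p = 0.000848) and Bax (-0.37, adjusted p = 0.0354). The others were Trp53, at -0.32 in XiO with Dox (adjusted p = 0.0477) and at -0.35 and -0.42 in XX cells (adjusted p = 0.0373 and 0.0177). Without Dox in WT XiO, Mdm2 moved by 0.20 and 0.21 with dTAG in experiments 1 and 2. Trp53inp1 moved there by 0.44 and 0.40, and Bax by 0.12 and 0.06.

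Dox alone, which induces Xist, lowered 3 of the genes in YTHDC1 experiment 1, where 12.6% of all genes changed. Mdm2 fell by 0.24 (adjusted p = 0.0302), Ccng1 by 0.30 (adjusted p = 0.0043) and Trp53inp1 by 0.33 (adjusted p = 0.00144), in both clones each. None of the 3 passed without Y12H (-0.28 for Mdm2, -0.21 for Ccng1 and -0.30 for Trp53inp1), and Mdm2 did not pass without Y9F (-0.20). In ZCCHC8, where 10.9% of all genes changed, Trp53inp1 fell by 0.30 (adjusted p = 0.00291), a call lost without Z4F (-0.18). With Dox 0 of the 10 were called by limma in experiment 2 (10.0% of all genes), METTL3 (0.778%) and ZFC3H1 (1.11%), where 3, 1 and 3 of the 10 had an unadjusted p under 0.05 and edgeR called 1, 0 and 0.

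The XiO line with WT METTL3 showed the opposite lean. With Dox, Cdkn1a went from 18.5 to 28.1 CPM in experiment 1 and from 17.0 to 21.4 in experiment 2, and Btg2 from 14.1 to 28.9 and from 14.5 to 27.8 CPM. Trp53inp1 went from 146.8 to 256.9 and from 191.5 to 319.2 CPM. All 10 genes were higher with Dox in both experiments, by 0.18 (Trp53) to 0.94 (Btg2) with a median of 0.50, beside 0.01 over all genes. Without a block 0 of the 10 passed (Btg2 adjusted p = 0.256), with 3 at an unadjusted p under 0.05, edgeR called 0, and 1.17% of all genes were called. With the experiment as a block 7 of the 10 rose, where 4.81% of all genes rose and 7.24% fell. They were Ccng1 (0.78, adjusted p = 3.7e-06), Trp53inp1 (0.77, adjusted p = 6.21e-06), Btg2 (0.94, adjusted p = 0.000132), Phlda3 (0.75, adjusted p = 0.000285), Mdm2 (0.55, adjusted p = 0.000653), Bax (0.31, adjusted p = 0.0173) and Cdkn1a (0.45, adjusted p = 0.0186). In D395A XiO all 10 were also above 0, by 0.04 to 0.67 with a median of 0.19, of which 1 had an unadjusted p under 0.05, limma and edgeR called 0 without a block, and 0.580% of all genes were called. With the block Ccng1 (0.28, adjusted p = 0.0162) and Btg2 (0.67, adjusted p = 0.0029) rose there, as did 3.34% of all genes. In the XX lines 2 of 10 were above 0, with 0 called by limma or edgeR, 0 at an unadjusted p under 0.05, and 0.00748% (WT) and 0.232% (D395A) of all genes called, and the block left 0 of the 10 called (3.18% and 5.86% of all genes). In WT XiO dTAG alone, set against the same untreated libraries, also left 9 of the 10 above 0. Their median was 0.20, beside 0.02 over all genes, and 0 passed. The WT XiO libraries had the highest fibroblast marker sums (120 to 144 CPM) and the lowest mES cell marker sums (1036 to 1288 CPM) of the lines, at like levels without Dox (130 to 138 CPM of fibroblast markers) and with it (120 to 144 CPM).

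**Figure D5:**
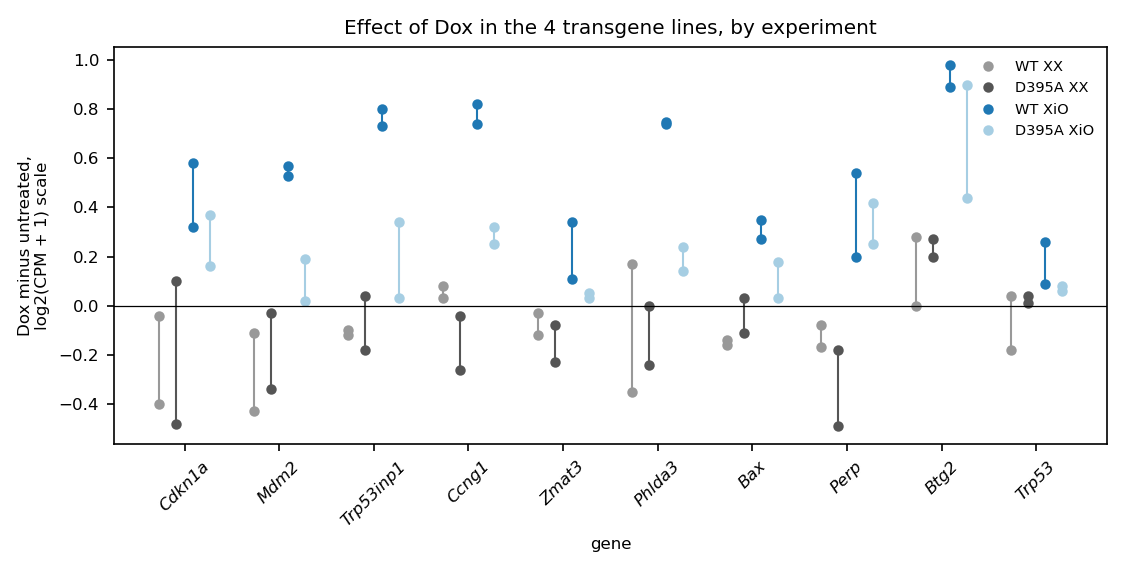
Log2 difference of Dox minus untreated on the log2(CPM + 1) scale (y axis) for each of the 10 genes (x axis) in the 4 transgene lines (colours). Each point is 1 experiment and lines join the 2 experiments of a line. All WT XiO points lie above 0, while most XX points lie at or below it.

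Other p53 targets were grouped by role. Of 9 other cell cycle and signalling targets, 1 rose in each YTHDC1 comparison, near the share of all genes that rose. That share was 10.6% and 9.84% in experiment 1 and 8.34% and 8.32% in experiment 2. The gene was Plk2, a kinase gene of the centrosome cycle (0.52 and 0.51 in experiment 1, 0.36 and 0.54 in experiment 2). In ZCCHC8 Trp53cor1, the gene of lincRNA-p21 next to Cdkn1a, rose by 0.99 (adjusted p = 1.02e-05) and 1.03 (adjusted p = 4.88e-06), while Cdkn1a itself differed by 0.17 and 0.10 there and did not pass. Of 11 other cell death targets, 3 rose and 0 fell in each comparison of YTHDC1 experiment 1. Of all genes 10.6% and 9.84% rose there and 8.45% and 5.69% fell. Among the targets that rose were Apaf1, the apoptosome scaffold (0.41 and 0.40), Aen, a nuclease (0.25 and 0.43), and Eda2r, a death receptor relative (0.24 and 0.38). Apaf1 rose in ZFC3H1 too (0.56 and 0.55), and fell in METTL3 (-0.48 and -0.36, adjusted p = 0.00154 and 0.0159). Steap3, a metalloreductase gene, rose in METTL3 by 1.10 and 1.17 (adjusted p = 0.00318 and 0.00749). In ZCCHC8 1 of the 11 rose and 1 fell without Dox (19.9% and 16.2% of all genes). With Dox 2 rose and 2 fell there (25.2% and 15.2%). Pidd1 fell in both ZCCHC8 comparisons (-0.34 and -0.32, adjusted p = 0.0385 and 0.0439).

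Of 16 DNA repair and metabolism targets 13 or 14 were tested. In YTHDC1 experiment 1 3 rose and 1 fell without Dox (10.6% and 8.45% of all genes) and 5 rose with Dox (9.84% of all genes). Among them Polk, a translesion polymerase gene, rose by 0.49 and 0.37, Ephx1, an epoxide hydrolase gene, by 0.39 and 0.48, and Ercc5, an excision repair nuclease gene, by 0.23 and 0.25. In ZFC3H1 Polk rose by 0.58 and 0.53 and Ephx1 by 0.57 and 0.72. Gls2, a glutaminase gene, fell by 0.33 and 0.43 in ZCCHC8, by 0.34 and 0.29 in YTHDC1 experiment 2 and by 0.37 in YTHDC1 experiment 1 without Dox (adjusted p = 0.015). Pank1, a pantothenate kinase gene, fell by 0.39 and 0.38 in ZCCHC8 and by 0.49 in ZFC3H1 with Dox (adjusted p = 0.0228). In METTL3 0 of the 14 tested passed in either comparison by limma, with 4 and 1 at an unadjusted p under 0.05. Of all genes 16.9% and 8.60% rose there and 6.34% and 1.94% fell.

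Among 18 regulators and relatives of p53, 17 of them tested, Mdm4 (the partner of MDM2 that holds p53 inactive) moved in opposite directions between lines. In METTL3 1 rose and 2 fell without Dox (16.9% and 6.34% of all genes) and 0 rose and 1 fell with Dox (8.60% and 1.94%). In ZCCHC8 3 rose and 5 fell without Dox (19.9% and 16.2% of all genes) and 4 rose and 2 fell with Dox (25.2% and 15.2%). In YTHDC1 experiment 1 2 rose and 1 fell in each comparison (10.6% and 9.84% of all genes rose, 8.45% and 5.69% fell). In experiment 2 3 rose and 1 fell without Dox (8.34% and 9.42% of all genes), and 1 rose and 0 fell with Dox (8.32% and 6.34%). In ZFC3H1 2 rose and 0 fell in each (1.75% and 2.53% of all genes rose, 0.399% and 0.620% fell). Mdm4 fell by 0.71 (adjusted p = 0.000359) and by 0.57 (adjusted p = 0.0054) in METTL3, and rose by 0.46 (adjusted p = 0.0107) and 0.43 (adjusted p = 0.0121) in ZFC3H1 and by 0.17 and 0.15 in YTHDC1 experiment 1. These lines sit in separate tables, and the difference between them was not tested. Trp73, a p53 relative, rose in YTHDC1 experiment 1 (0.53 and 0.70), experiment 2 (0.38 and 0.70), ZCCHC8 (0.74 and 0.82) and ZFC3H1 (0.64 and 0.84), and Trp63, the other relative, in ZCCHC8 (1.02 and 0.97).

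Of 20 cell cycle genes that the p53 and p21 axis represses, 12 fell in ZCCHC8 in each comparison (16.2% and 15.2% of all genes fell), with medians of -0.21 and -0.20, and 0 and 1 rose (19.9% and 25.2% of all genes). Examples were Mki67 (-0.55 and -0.67), Cdk1 (-0.45 and -0.25), Aurka (-0.35 and -0.34) and Foxm1 (-0.32 and -0.57). In YTHDC1 experiment 1 4 and 3 fell (8.45% and 5.69% of all genes), including Top2a (-0.20 and -0.19), and 2 and 0 rose (10.6% and 9.84%). In experiment 2 3 and 3 fell (9.42% and 6.34% of all genes) and 0 rose (8.34% and 8.32%). In ZFC3H1 0 passed by limma, with 5 and 1 at an unadjusted p under 0.05 (1.75% and 2.53% of all genes rose, 0.399% and 0.620% fell). In METTL3 4 rose without Dox (16.9% of all genes). With Dox 0 passed in METTL3 (8.60% of all genes rose and 1.94% fell) and 0 had an unadjusted p under 0.05. The most calls of this list were thus in ZCCHC8, which also had the largest share of all genes called.

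As a description, the deviations of the 10 genes from the mean of their line and clone were correlated over the 80 libraries. These libraries share lines, depth and base composition. In the transgene lines the experiments of a clone share 1 mean, so differences between experiments stay in the deviations. The 45 pairs had a median Pearson r of 0.39, from -0.41 (Trp53 with Perp) to 0.81 (Phlda3 with Btg2), with 16 pairs above 0.5 and 6 below 0. The genes most like Cdkn1a among 12671 were Sesn2 (r = 0.82), Pidd1 (0.78), Galnt6, Dcxr and Cd81 (0.77 each), of which Sesn2 and Pidd1 are p53 targets. In the 64 libraries outside the METTL3 line Sesn2 was again first (r = 0.73) and Pidd1 was at rank 7 (r = 0.63). Mdm2 had r = 0.27 with Cdkn1a over the 80 libraries and Ccng1 r = 0.20.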

How the data were processed

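Chromatin-associated RNA was sequenced in 80 libraries. The deposited values are CPM: per the methods, rRNA reads were filtered out by bowtie2 and the authors mapped the remainder to N-masked mm10 by STAR, retained unique alignments, counted strand-specific reads over whole transcript spans with featureCounts and scaled counts to library size with edgeR. All values (100%) came out as whole reads within 0.1, without molecular identifiers. Starts in the files count from 0 and are given here from 1. The 2 YTHDC1 tables carry the same column names, and the one named as the repeat was taken as experiment 2. Another 12 columns matched no sample and were not used here.

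Tests took genes whose mean reached 1 CPM and used limma 3.58.1 (lmFit, eBayes with trend; R 4.3.3) on log2(CPM + 1), with Benjamini-Hochberg adjustment over all genes tested and a threshold of 0.05. Fits took all lines and treatments of a table, so the lines of a table share 1 estimate of the spread. Clone, which is a cell line named in the labels, was a block in degron tables: same-clone libraries deviated together in YTHDC1 (r 0.18 to 0.79), ZCCHC8 (0.33 to 0.61) and ZFC3H1 (0.81 to 0.90), and less evenly in METTL3 (-0.18 to 0.86). The transgene tables were fitted without a block. Per the study's reporting summary, wells of a biological replicate derive from a single batch of cells, so experiment numbers pair the transgene libraries, and libraries of the same experiment deviated together (r 0.43 to 0.92). Values with the experiment as a block are therefore given beside the results they change. Nothing in the labels says that the libraries of a clone came from separate cultures. A line's dTAG comparisons use separate controls, without and with Dox. Counts at an unadjusted p under 0.05 are given without the share of all genes at that threshold. They are therefore not read as a result about the listed genes.

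The alternatives were a pseudocount of 0.1, no filter, median-ratio scaling, edgeR 4.0.16 on recovered reads, the fibroblast marker sum or the share of CPM in genes under 3 kb as a covariate, the clone or experiment block removed or added, only the groups compared, and each clone or experiment left out. The p53 half-site searched has a C and a G fixed at its core with A or T between them, purines before and pyrimidines after, reads alike on both strands, and was allowed up to 3 mismatches per pair outside the fixed bases. The test code was checked on simulated data.

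The members and gene lists were chosen with earlier results of these data known. All 10 members are named in every comparison; of the other lists, genes called in the same direction in both dTAG comparisons of a degron line were eligible, at most 4 per list and line, by size of change, and the 5 genes most correlated with Cdkn1a.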

Additional observations from a re-analysis of the deposited data

Results flagged for a closer look

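In the METTL3 lines, where each group had 4 clones, a single clone stood apart from the others in 2 of 40 tests of gene and group, about what chance gives at 1 in 20. Bax with dTAG was at 17.3 CPM in clone C3, beside 28.2 to 30.0 CPM in the other clones. Ccng1 with dTAG and Dox was at 211.6 CPM in clone C3, beside 268.8 to 280.9 CPM in the others.

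The effect of dTAG differed between the ZCCHC8 and YTHDC1 lines for 2 of the 10 genes. For Mdm2 the effect in ZCCHC8 minus that in YTHDC1 experiment 1 was -0.62 without Dox and -0.53 with Dox on the log2 scale. For Trp53 it was 0.26 without Dox and 0.47 with Dox.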

How the results depend on the processing

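Of the changes called, Mdm2 in YTHDC1 experiment 1 without Dox, Trp53inp1 in ZCCHC8 with Dox, Mdm2 between ZCCHC8 and YTHDC1, and Trp53 between them with Dox passed in every alternative run. A single value reversed, Bax in METTL3 with dTAG, which was 0.19 and became -1.08 (adjusted p = 0.0325) with the fibroblast marker covariate; the cause was not tested. In YTHDC1 experiment 2 and ZFC3H1, leaving out a clone leaves no replicate, so values there carry no test. In YTHDC1 experiment 1 and ZCCHC8 it also leaves 1 library per group. Whether such a fit passes rests on the spread of the other line fitted with it, so no p-values are given for it.

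Counts of the 10 genes called moved as follows, with dTAG comparisons given without and then with Dox. Apart from the fits with the experiment as a block, they are given without the share of all genes called in the same fits. They are therefore not read as a result about the 10 genes. With median-ratio scaling they were 3 and 1 in METTL3, 3 with Dox in ZCCHC8 and 1 without Dox in D395A XX, and for Dox alone 1 in YTHDC1 experiment 2 and 2 in ZCCHC8; edgeR gave the same counts of 3, 1, 3, 1, 1 and 2. With no filter they were 1 and 0 in experiment 2, 1 with Dox in ZFC3H1 and 1 for ZCCHC8 minus YTHDC1 without Dox. The fibroblast covariate gave 1 and 1 in experiment 2, 0 and 2 in ZCCHC8, 1 for Dox in ZFC3H1 and 1 for the difference without Dox. The short-gene covariate gave 6 and 1 in experiment 2, 0 and 1 in ZCCHC8, 3 without Dox in ZFC3H1, and for Dox alone 0 in experiment 1, 2 in ZCCHC8, 1 in ZFC3H1 and 1 in WT XiO. Fits of only the groups compared gave 9 with Dox in experiment 1, 1 without Dox in experiment 2, 3 and 9 in ZFC3H1, 1 without Dox in D395A XX, and for Dox alone 3 in experiment 2, 3 in ZCCHC8 and 2 in ZFC3H1. In the lines with 2 clones such a fit rests on 2 libraries per group.

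Without the replicate block the counts were 3 and 2 in YTHDC1 experiment 1, 0 and 0 in experiment 2, 0 and 2 in ZCCHC8, 0 and 0 in ZFC3H1 and 1 for the difference without Dox. With a replicate block added in the transgene lines they were 2 and 5 in D395A XX, 5 and 3 in D395A XiO, 7 for Dox in WT XiO and 2 for Dox in D395A XiO, and for D395A minus WT 3 and 1 in XiO and 1 and 1 in XX. The block left the other transgene counts at 0. Counts with a clone left out are not given for YTHDC1 experiment 1 and ZCCHC8, where that leaves 1 library per group. Depth limits Phlda3 and Perp most, with as few as 31 and 48 reads in a library.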
